A study of Mus musculus with 24 samples.

Results

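The response of the mouse cochlea to daytime noise after removal of the adrenal glands was read from 6 of 24 RNA libraries, 3 labelled day noise ADX and 3 labelled day sham exposure ADX. ADX stands for adrenalectomy, which takes away the main source of glucocorticoid hormone, and both groups carried it. The tissue was whole cochlea of CBA/Sca mice aged 12 weeks. Noise of 6 to 12 kHz at 100 dB SPL lasted 1 h and began 3 h after lights-on (ZT3), while the other mice had a sham exposure. The other 18 libraries were night exposures and sham-operated mice in groups of 3.

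Per the series design, cochleae were taken 2 h after the noise, whereas the sample labels give ZT11 for all day libraries, and neither source settles this. Whether the 3 libraries of a group, lettered a to c, come from separate animals is not stated in the labels, so p-values measure only their spread, which may be technical. Noise ADX libraries a, b and c held 25189030, 36108962 and 26824612 counts, and sham exposure ADX libraries a, b and c held 22887405, 23646633 and 25504510. Levels are CPM (each count divided by the TMM-scaled library size and put on the usual common depth), given in the order a, b, c, and positions are those of GRCm38.

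Loud sound strains hair cells, supporting cells and the lateral wall of the cochlea. Strained or stimulated cells switch on immediate early genes within minutes, many of them through MAP kinases, calcium and serum response factor, and the proteins made from these genes then drive repair, cytokine and feedback genes. Glucocorticoid, the adrenal stress hormone, acts through a nuclear receptor that switches on genes such as Sgk1, Per1 and Fkbp5 and restrains inflammation, and it also carries time-of-day information to the clocks of peripheral tissues.

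Noise by day changed 667 of 16607 genes tested (4.02%) in ADX cochleae, 334 higher (2.01%) and 333 lower (2.01%), by edgeR's quasi-likelihood test at an adjusted p below 0.05, and 3903 (23.5%) had an unadjusted p below 0.05. The rises were the larger changes. Among genes called higher the median log2 change was 0.48 and 63 exceeded 2-fold, and among genes called lower the median was -0.41 and 20 exceeded 2-fold. The median over all genes tested was -0.01. All 3 noise ADX libraries lay above all 3 sham exposure ADX libraries for 2024 genes (12.2%), and below them for 2267 genes (13.7%). Such separation held for 329 of the 334 genes called higher and 331 of the 333 called lower. For a called gene, separate groups thus add little to the call. For the genes with the largest changes separation was a condition of their choice.

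The lead changes were in genes of transcription factors, signal brakes and secreted factors, and injury itself was not measured here. Among the genes with the largest rises at well measured levels, Nr4a3, Fosb, Fos, Maff, Atf3 and Nr4a1 encode transcription factors, Gem and Rasd1 small GTPases, and Gdf15, Ccl2 and Lif secreted proteins. The 12 largest falls included Rxfp3, the relaxin 3 receptor, at 3.19, 2.08 and 1.21 CPM in noise ADX libraries, against 9.37, 6.26 and 6.37 CPM in sham exposure ADX libraries (log2 change -1.77, SE 0.347, adjusted p = 0.00697 by edgeR). That its groups did not overlap was required by the choice of these genes. The call was lost without noise ADX c, at an adjusted p of 0.0582.

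**Figure D1:**
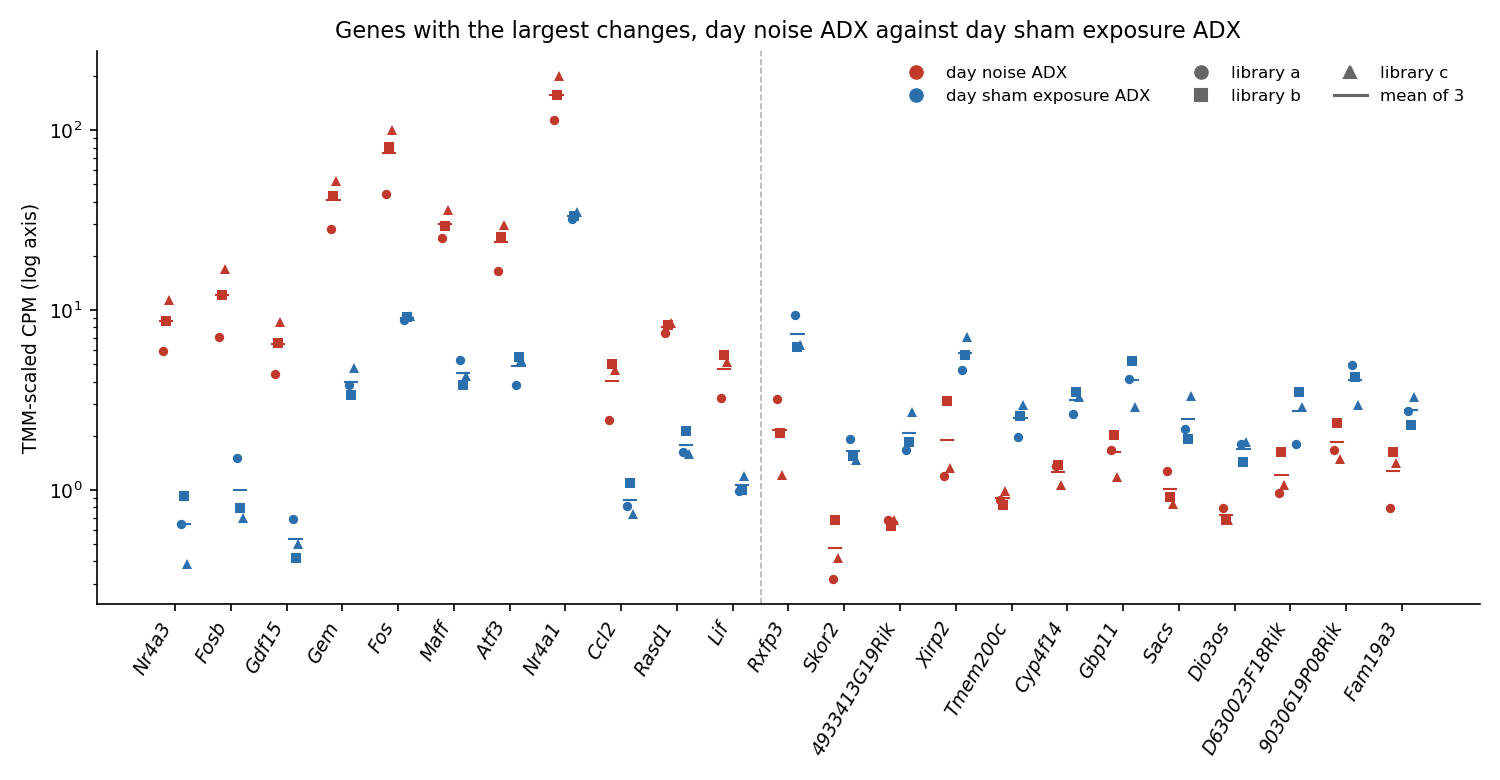
TMM-scaled CPM on a log axis of 11 of the 12 genes with the largest rises and of the 12 with the largest falls in each of the 3 day noise ADX (left of each pair) and 3 day sham exposure ADX libraries; marker shape gives the library letter and bars the mean of 3. In each gene the noise and sham exposure libraries do not overlap, which the choice of genes required; the highest library of the 12 genes that fell is at 9.37 CPM (Rxfp3).

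**Figure D2:**
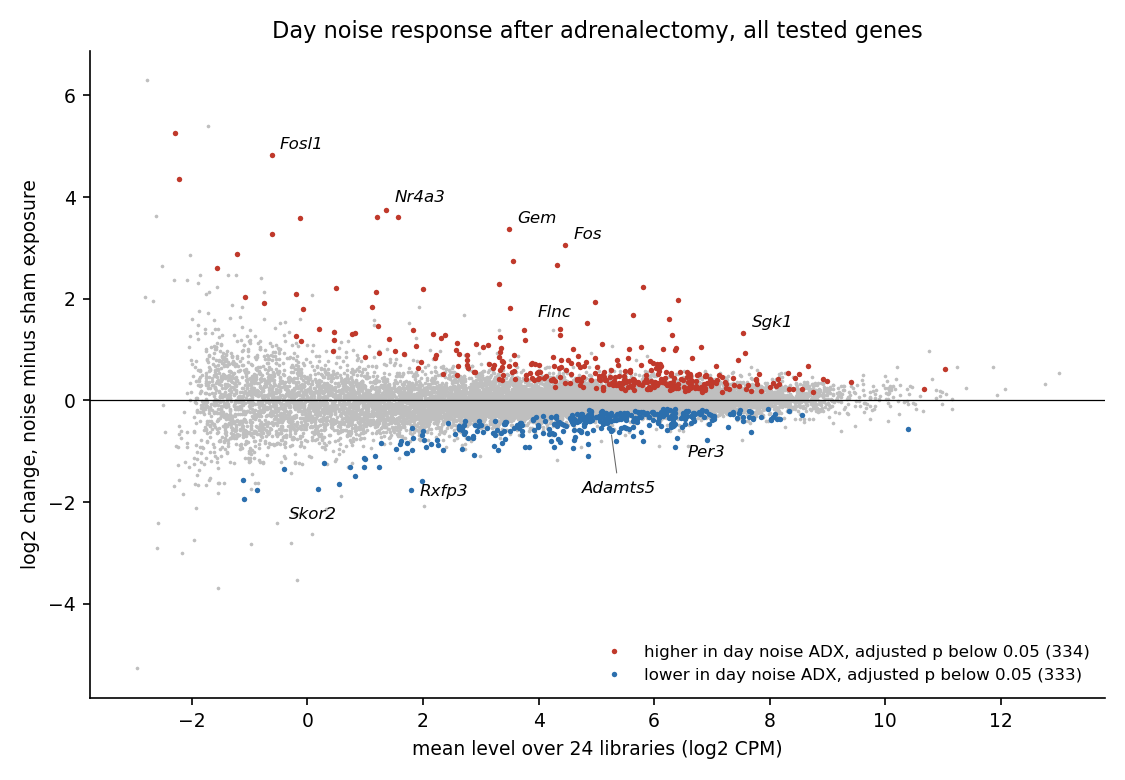
Log2 change (day noise ADX minus day sham exposure ADX) of all 16607 genes tested against mean log2 CPM over 24 libraries, with 334 genes called higher and 333 called lower in colour. The rises reach further from 0 than the falls: 63 rises and 20 falls exceed 2-fold.

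Of the gene lists examined, that of AP-1 subunits and small Maf partners had the highest median change. AP-1 is a pair of Fos-type, Jun-type or related proteins that binds DNA and drives genes of growth, stress and repair, and small Maf proteins can join it. Of 13 subunits and partners tested, 11 rose, 0 fell and 2 did not pass (Batf3 and Batf), against 2.01% of all genes higher. The median log2 change of the list was 0.97, beside -0.01 over all genes tested. Members of this list, like those of the lists that follow, were chosen with earlier results of these data known. Over all genes tested 2.01% were higher and 2.01% lower, the shares to set beside the counts of those lists.

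Fosl1, a Fos-type subunit of injured and migrating cells (chr19:5447547-5455946), measured 2.47, 2.9 and 4.36 CPM in noise ADX libraries, against 0.171, 0.0835 and 0.0772 CPM in sham exposure ADX libraries (log2 change 4.83, SE 0.456, adjusted p = 1.74e-06). The groups lay far apart, with the sham exposure values resting on a few reads per library. Fos, the classic immediate early subunit (chr12:85473890-85477273), measured 44.4, 80.3 and 100.5 CPM in noise ADX libraries, against 8.85, 9.1 and 9.22 CPM in sham exposure ADX libraries (log2 change 3.05, SE 0.423, adjusted p = 0.000423). Fosb, its close relative (chr7:19302696-19310051), measured 7.09, 12.1 and 17 CPM in noise ADX libraries, against 1.5, 0.793 and 0.695 CPM in sham exposure ADX libraries (log2 change 3.61, adjusted p = 0.000508). For Fos and Fosb the sham exposure libraries were tight while the noise libraries spread widely, lowest in a and highest in c.

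Maff, a small Maf protein (chr15:79346621-79359076), measured 25.1, 29.3 and 36.2 CPM in noise ADX libraries, against 5.3, 3.84 and 4.32 CPM in sham exposure ADX libraries (log2 change 2.75, SE 0.217, adjusted p = 3.49e-07). Atf3, a stress-induced partner (chr1:191170296-191218039), measured 16.4, 25.3 and 29.7 CPM with noise and 3.85, 5.47 and 5.29 CPM without (log2 change 2.29, adjusted p = 3.44e-05). The Jun-type subunits rose less. Junb (chr8:84974484-84978718) changed by 1.69 on the log2 scale, Jun (chr4:95049034-95052222) by 0.72 and Jund (chr8:70698949-70700616) by 0.36, so the size of the rise differed widely within the list. Mafk rose by 0.51, Fosl2 by 0.74 and Mafg by 0.22. Without noise ADX c the count of rises was 7, and with any other of the 6 libraries left out it was 8 to 10. Fosl1, Fosb, Fos, Maff, Atf3, Junb and Jun passed in all 6 of these fits.

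Other immediate early genes rose with them. Of 22 tested, 14 rose, 0 fell and 8 did not pass, with a median log2 change of 0.66. Nr4a3, an orphan nuclear receptor (chr4:48045153-48086447), measured 5.94, 8.73 and 11.4 CPM in noise ADX libraries, against 0.642, 0.918 and 0.386 CPM in sham exposure ADX libraries (log2 change 3.75, SE 0.531, adjusted p = 0.000423). Egr1, a zinc-finger factor of acute stimulation (chr18:34859823-34864984), measured 129.7, 184 and 234 CPM with noise and 49, 51.2 and 39 CPM without (log2 change 1.98, adjusted p = 0.00217). Nab2, which represses Egr proteins (chr10:127660918-127668568), measured 57.9, 66 and 75.2 CPM with noise and 36.2, 32 and 30.8 CPM without (log2 change 1.01, SE 0.0946, adjusted p = 1.74e-06).

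In these 3 genes no noise library overlapped a sham exposure library. Nr4a1, Ier3 and Csrnp1 rose by 2.23, 1.40 and 1.02, and Klf4, Klf6, Klf10, Zfp36, Ier2, Npas4, Egr3 and Arc by between 0.36 and 0.91. Nr4a2 (log2 change 0.88, adjusted p = 0.0548), Egr2 (0.30, adjusted p = 0.137) and Srf (0.13, adjusted p = 0.169) did not pass. The count of 14 depended on single libraries: it was 6 without noise ADX c, 8 without sham exposure ADX c, 17 without noise ADX a and 10 without each of the other 3.

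Brakes on MAP kinase signalling rose as well, with 8 of 17 higher, 0 lower and a median log2 change of 0.31. Dusp1, a phosphatase that switches off p38 and JNK kinases, measured 111, 139.9 and 166 CPM in noise ADX libraries, against 41.2, 46.7 and 49.2 CPM in sham exposure ADX libraries (log2 change 1.60, SE 0.228, adjusted p = 0.000508). Dusp5, a nuclear phosphatase of ERK kinases, measured 7.93, 8.3 and 10.1 CPM with noise and 3.55, 3.84 and 3.43 CPM without (log2 change 1.28, SE 0.206, adjusted p = 0.00117). Errfi1, an inhibitor of the EGF receptor (chr4:150853919-150868892), measured 147, 155 and 172 CPM with noise and 79.8, 77.1 and 71 CPM without (log2 change 1.06, SE 0.134, adjusted p = 0.000107). None of the 3 genes had overlapping groups. Dusp4, Dusp6, Spry4, Rgs2 and Dusp16 rose by 0.88, 0.51, 0.73, 0.50 and 0.26. The EGF receptor ligand Hbegf measured 19.4, 23.7 and 28.5 CPM with noise and 7.4, 5.8 and 7.02 CPM without (log2 change 1.82, SE 0.206, adjusted p = 2.85e-05). With 1 library left out, 7 to 9 of the 17 brakes rose.

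Promoter windows of 4 genes that rose are printed to show where known response letters lie in them: Dusp1 and Dusp5 among the kinase brakes, Srxn1 among oxidative stress genes and Per1 among clock and glucocorticoid genes. They are RefSeq sequences of GRCm38.p6, read from 5′ to 3′ along the gene, from 250 bases before the annotated start to 50 after it. Capitals mark a full cyclic AMP response element (CRE), an AP-1 site, a CArG box (the serum response factor site) or an E-box (the site of clock factors). Where a gene had more than 1 window, as Per1 did, the window was chosen for holding the most of these motifs.
Dusp1, chr17:26508423-26508722, minus strand: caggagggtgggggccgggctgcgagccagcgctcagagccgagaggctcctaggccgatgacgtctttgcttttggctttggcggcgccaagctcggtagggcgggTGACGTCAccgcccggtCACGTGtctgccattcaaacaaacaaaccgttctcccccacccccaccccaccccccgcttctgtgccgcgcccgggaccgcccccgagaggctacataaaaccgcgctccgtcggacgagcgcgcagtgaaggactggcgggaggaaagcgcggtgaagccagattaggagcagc
Dusp5, chr19:53528895-53529194, plus strand: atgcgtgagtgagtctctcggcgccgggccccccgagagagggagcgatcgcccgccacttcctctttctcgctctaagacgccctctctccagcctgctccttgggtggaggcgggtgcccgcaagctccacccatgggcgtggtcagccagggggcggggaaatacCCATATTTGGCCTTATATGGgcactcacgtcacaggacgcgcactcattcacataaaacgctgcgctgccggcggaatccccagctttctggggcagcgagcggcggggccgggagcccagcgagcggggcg
Srxn1, chr2:152105274-152105573, plus strand: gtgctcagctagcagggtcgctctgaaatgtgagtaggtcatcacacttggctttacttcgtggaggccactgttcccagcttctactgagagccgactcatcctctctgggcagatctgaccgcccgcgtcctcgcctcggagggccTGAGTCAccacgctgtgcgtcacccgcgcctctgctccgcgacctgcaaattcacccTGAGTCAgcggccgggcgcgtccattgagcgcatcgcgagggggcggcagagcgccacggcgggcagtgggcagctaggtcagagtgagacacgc
Per1, chr11:69098699-69098998, plus strand, 1 of 2 windows of the gene: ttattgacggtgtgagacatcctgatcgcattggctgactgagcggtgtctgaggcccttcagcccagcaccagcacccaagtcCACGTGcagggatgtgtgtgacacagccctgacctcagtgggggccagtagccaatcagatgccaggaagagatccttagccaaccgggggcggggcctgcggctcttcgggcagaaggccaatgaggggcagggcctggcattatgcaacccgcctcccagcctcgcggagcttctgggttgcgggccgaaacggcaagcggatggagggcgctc

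The Dusp1 window held a CRE whose first base lies at -143 and an E-box at -126, counted from the start. Dusp5 held a pair of adjoining CArG boxes at -82 and -72, Srxn1 a pair of AP-1 sites at -102 and -45, and Per1 an E-box at -166. Each printed window also held at least 1 NF-kB match, which is not in capitals. The letters searched on both strands were TGACGTCA for the CRE, TGANTCA for AP-1, CACGTG for the E-box, and the CArG box and the NF-kB motif by their names. A CRE contains no match to the AP-1 letters. Among 337 windows of 251 genes that rose, 3.56% held a CRE, 8.61% an AP-1 site, 2.67% a CArG box, 13.4% an E-box and 67.7% an NF-kB match. Among 309 windows of 234 genes that fell, the shares were 0.971%, 6.47%, 1.29%, 7.44% and 64.1% in the same order. Over the 15309 windows of 12068 tested genes they were 2.73%, 5.65%, 1.35%, 9.14% and 64.9%. A match describes letters in the window and not a bound site, and the shares were not tested.

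Genes of tissue injury and repair formed the next block, with 12 of 23 higher, 0 lower and a median log2 change of 0.61. Tnfrsf12a, the receptor of the cytokine TWEAK (chr17:23675445-23677468), had the smallest adjusted p of all genes. It measured 53.6, 62.8 and 70 CPM in noise ADX libraries, against 15, 18.1 and 15.6 CPM in sham exposure ADX libraries (log2 change 1.94, SE 0.118, adjusted p = 2.89e-09). Gdf15, a stress-induced cytokine (chr8:70629393-70632456), measured 4.42, 6.54 and 8.57 CPM with noise and 0.684, 0.417 and 0.502 CPM without (log2 change 3.60, SE 0.335, adjusted p = 1.74e-06). Gem, a GTPase that restrains calcium channels (chr4:11704457-11714752), measured 28.3, 43 and 52.2 CPM with noise and 3.81, 3.38 and 4.75 CPM without (log2 change 3.37, SE 0.343, adjusted p = 1.14e-05).

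For all 3 the groups were widely separated. Sprr1a, a growth-associated protein of injured neurons, changed by 2.87, Apold1, an endothelial early response gene, by 1.38, the adhesion receptor gene Pvr by 1.06, and Medag, Gadd45b and Ifrd1 by 0.74, 0.71 and 0.69. Spp1, which encodes osteopontin, changed by 0.61 and the small chaperone gene Hspb1 by 0.84. Gadd45g (0.56, adjusted p = 0.052), Lgals3, Cd44, Timp1, Sox11 and Gfap did not pass. Between 8 and 15 of the 23 rose with 1 library left out, 8 of them without noise ADX b or without sham exposure ADX b.

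Of 28 chemokines and cytokines 3 rose and 0 fell, beside 2.01% of all genes higher, with a median log2 change of 0.47. DESeq2 called 6 higher and voom 7. Ccl7 (chr11:82045712-82047525), a monocyte chemokine, measured 2.87, 3.67 and 3.94 CPM in noise ADX libraries, against 0.214, 0.459 and 0.193 CPM in sham exposure ADX libraries (log2 change 3.58, SE 0.459, adjusted p = 0.000104). Its neighbour Ccl2 (chr11:82035571-82037453) measured 2.43, 5.03 and 4.66 CPM with noise and 0.813, 1.08 and 0.733 CPM without (log2 change 2.21, SE 0.348, adjusted p = 0.000925). Lif (chr11:4257557-4272514), a cytokine of the interleukin 6 family, measured 3.23, 5.63 and 5.15 CPM with noise and 0.984, 1 and 1.2 CPM without (log2 change 2.14, SE 0.244, adjusted p = 2.85e-05).

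These 3 passed in each fit with 1 library left out, and their groups did not overlap. Without noise ADX a, 12 of the 28 rose. Cxcl1 (1.27, adjusted p = 0.0593), Ccl12 (adjusted p = 0.0747), Il1b (0.57, adjusted p = 0.176) and Tnf (0.25, adjusted p = 0.458) did not pass.

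Lif and its relatives signal through gp130, and of 25 genes of that pathway 5 rose and 1 fell. Socs3, the feedback inhibitor (chr11:117966079-117970047), measured 29.2, 30.5 and 41 CPM with noise and 14.7, 13.7 and 13.1 CPM without (log2 change 1.28, SE 0.158, adjusted p = 8.15e-05). Besides Lif and Cebpb, a transcription factor of the acute phase, the receptor gene Osmr (0.45) and the signal transducer Stat3 (0.24) rose. Il6st, which encodes gp130 itself (chr13:112464070-112510086), fell to 346.8, 324 and 334 CPM with noise, against 441, 391 and 402 CPM without (log2 change -0.30, SE 0.0687, adjusted p = 0.0194). Its groups did not overlap, and it passed in 2 of the 6 fits with 1 library left out. With 1 library left out 3 to 8 of the 25 rose, 3 of them without noise ADX c or without sham exposure ADX c.

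Of 30 cytoskeletal genes and targets of YAP or serum response factor, 6 rose and 0 fell, with 12 higher without noise ADX a and 3 without noise ADX c.

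Flnc, a filamin that crosslinks actin (chr6:29433256-29461883), measured 53.8, 50.2 and 57.5 CPM with noise and 20.3, 18.1 and 18 CPM without (log2 change 1.52, SE 0.136, adjusted p = 1.74e-06). Vcl, the vinculin of cell adhesions (chr14:20929398-21033676), measured 391.9, 375 and 413 CPM with noise and 276, 322 and 276 CPM without (log2 change 0.43, SE 0.0687, adjusted p = 0.000981). The groups of both genes lay apart. The matricellular genes Cyr61 and Ctgf changed by 1.03 and 0.52, and Zyx and Tpm4 by 0.33 and 0.32. Adamts1, a matrix protease (chr16:85793827-85803113), rose 2.00-fold, while Adamts5 fell; both belong to a list of 24 matrix proteases and inhibitors in which 22 did not pass.

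Most members of other stress programmes did not pass. Over all genes 2.01% were higher and 2.01% lower. Of 25 genes of the unfolded protein and integrated stress response 4 rose (Ddit3, Slc7a5, Dnajb9 and Atf4, by 0.23 to 0.50) and 0 fell. Of 24 oxidative stress genes 3 rose. Srxn1, which repairs oxidised peroxiredoxins (chr2:152105516-152111376), measured 81.2, 87 and 93 CPM with noise and 50.7, 58.4 and 57.3 CPM without (log2 change 0.65, SE 0.0837, adjusted p = 0.000107). Gpx3 changed by 0.53 and Gclc by 0.32. The heat-shock list had 2 rises of 19 (Hspb1 and Hspb8), the p53 targets 3 of 20 (Gdf15, Plk3 and Cdkn1a), and hypoxia-inducible genes 2 rises (Ddit4 and Hk2) and 2 falls (Pdk1 and Egln1) of 21. Without noise ADX b or without noise ADX c, 0 of the 25 stress response genes and 0 of the 19 heat-shock genes passed.

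Crem and Sik1, feedback genes of cyclic AMP signalling, rose by 0.72 and 1.00. Members of the TGF-beta and BMP list (25), purinergic list (16), glutamate list (26), potassium channels (82) and nuclear genes of oxidative phosphorylation (80) had 0 genes past the edgeR threshold. At an unadjusted p below 0.05 they had 5, 4, 2, 13 and 12, DESeq2 called 2, 1, 0, 2 and 0, and voom 1, 0, 0, 2 and 0. Without noise ADX a, the counts called lower were 2, 1, 1, 6 and 0, and 5 of the 80 oxidative phosphorylation genes were higher. Without sham exposure ADX b, 1 purinergic gene was lower and 1 potassium channel higher.

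**Figure D3:**
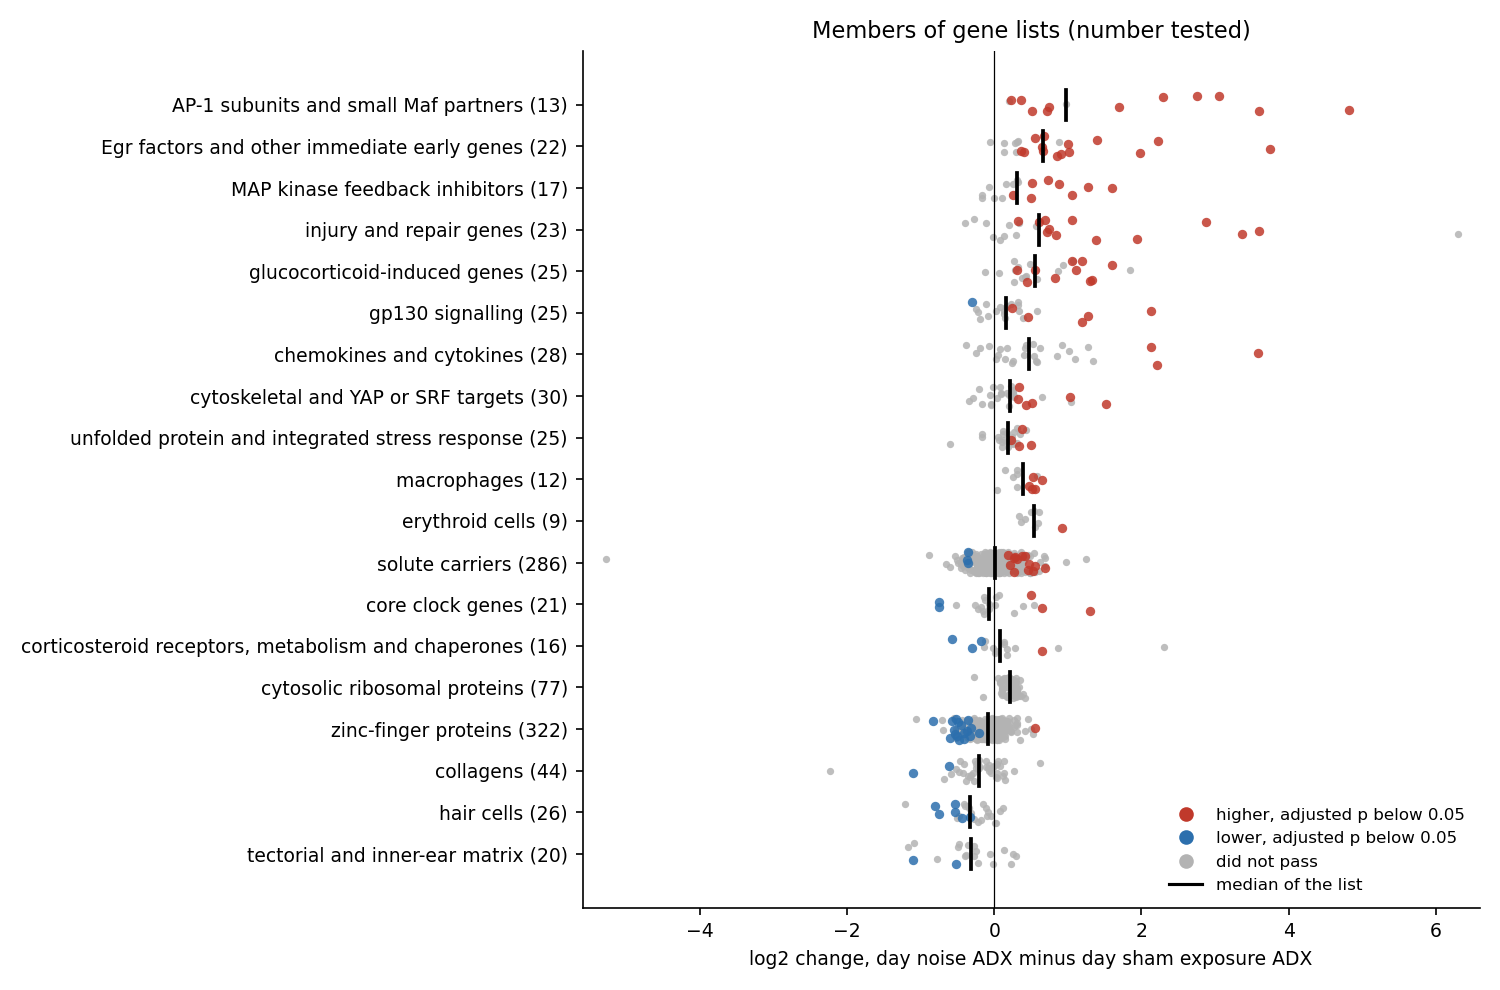
Log2 change (day noise ADX minus day sham exposure ADX) of each tested member of 19 gene lists; colour marks genes past an adjusted p of 0.05 by edgeR and the black bar is the median of the list. Medians run from 0.97 for AP-1 subunits to -0.33 for hair cell markers, and most members of the larger families did not pass.

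Glucocorticoid-induced genes rose with noise in mice labelled as adrenalectomized. Of 25 genes known to respond to the hormone, 10 rose, 0 fell and 15 did not pass, with a median log2 change of 0.56. In 22 of the 25 all noise ADX libraries lay above all sham exposure ADX libraries, against 12.2% of all genes. Several of the 10 are also induced by other stimuli, and Dusp1, Errfi1 and Cebpb stand on other lists above as well. The count was 7 without noise ADX c or without sham exposure ADX c, and 8 to 11 with any other library left out.

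Sgk1, a kinase that stabilises ion channels (chr10:21882184-21999903), measured 284.8, 266 and 313 CPM in noise ADX libraries, against 107, 124 and 114 CPM in sham exposure ADX libraries (log2 change 1.32, SE 0.123, adjusted p = 1.91e-06). Ddit4, an inhibitor of mTOR (chr10:59949669-59951834), measured 47.9, 46.9 and 48.9 CPM with noise and 21.8, 23.8 and 21.1 CPM without (log2 change 1.11, SE 0.231, adjusted p = 0.0115). Pdk4, a kinase that spares glucose (chr6:5483351-5496309), measured 52.8, 61.3 and 64.2 CPM with noise and 35.3, 33.5 and 31.6 CPM without (log2 change 0.83, SE 0.135, adjusted p = 0.00148). Each of these genes had separate groups. The others that rose were Dusp1, Per1, Cebpb, Errfi1, Cdkn1a (0.56), Nfkbia (0.45) and Bcl6 (0.31).

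Other members were higher in noise ADX libraries without passing the test. Fkbp5, a chaperone of the glucocorticoid receptor (chr17:28399094-28517527), measured 68.2, 56 and 61.1 CPM with noise and 30.5, 35.5 and 35.4 CPM without (log2 change 0.87, SE 0.318, adjusted p = 0.117). Tsc22d3, also called GILZ (chrX:140539528-140600659), measured 117.4, 101.3 and 108 CPM with noise and 77.9, 79 and 84.4 CPM without (log2 change 0.44, SE 0.182, adjusted p = 0.159). Hif3a (chr7:17031507-17062427) measured 5.74, 5.15 and 4.13 CPM with noise and 1.2, 1.5 and 1.47 CPM without (log2 change 1.84, SE 0.577, adjusted p = 0.0752). The libraries of these 3 genes did not overlap within the comparison. The model estimated the spread of a gene over all 24 libraries. In a fit of the 6 libraries alone 16 of the 25 genes rose, while the calls over all genes were 410 against 667. Why these 3 genes did not pass was not tested.

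The mean level of the list set these groups beside those of sham-operated mice. Expressed as log2 CPM minus each gene's own mean of the 24, it was 0.27, 0.18 and 0.23 in day noise ADX and -0.52, -0.46 and -0.46 in day sham exposure ADX. In day noise sham-operated it was 0.25, 0.15 and -0.13, and in day sham exposure sham-operated 0.09, -0.04 and 0.02. Noise ADX libraries thus lay within or just above the range of sham-operated libraries, and sham exposure ADX libraries below it. Fkbp5 measured 85, 60.9 and 41.7 CPM in day noise sham-operated and 82.6, 72.1 and 57.6 CPM in day sham exposure sham-operated libraries, all above its sham exposure ADX libraries. No transcript in the table shows directly whether the adrenal glands were absent, and circulating hormone was not measured here.

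**Figure D4:**
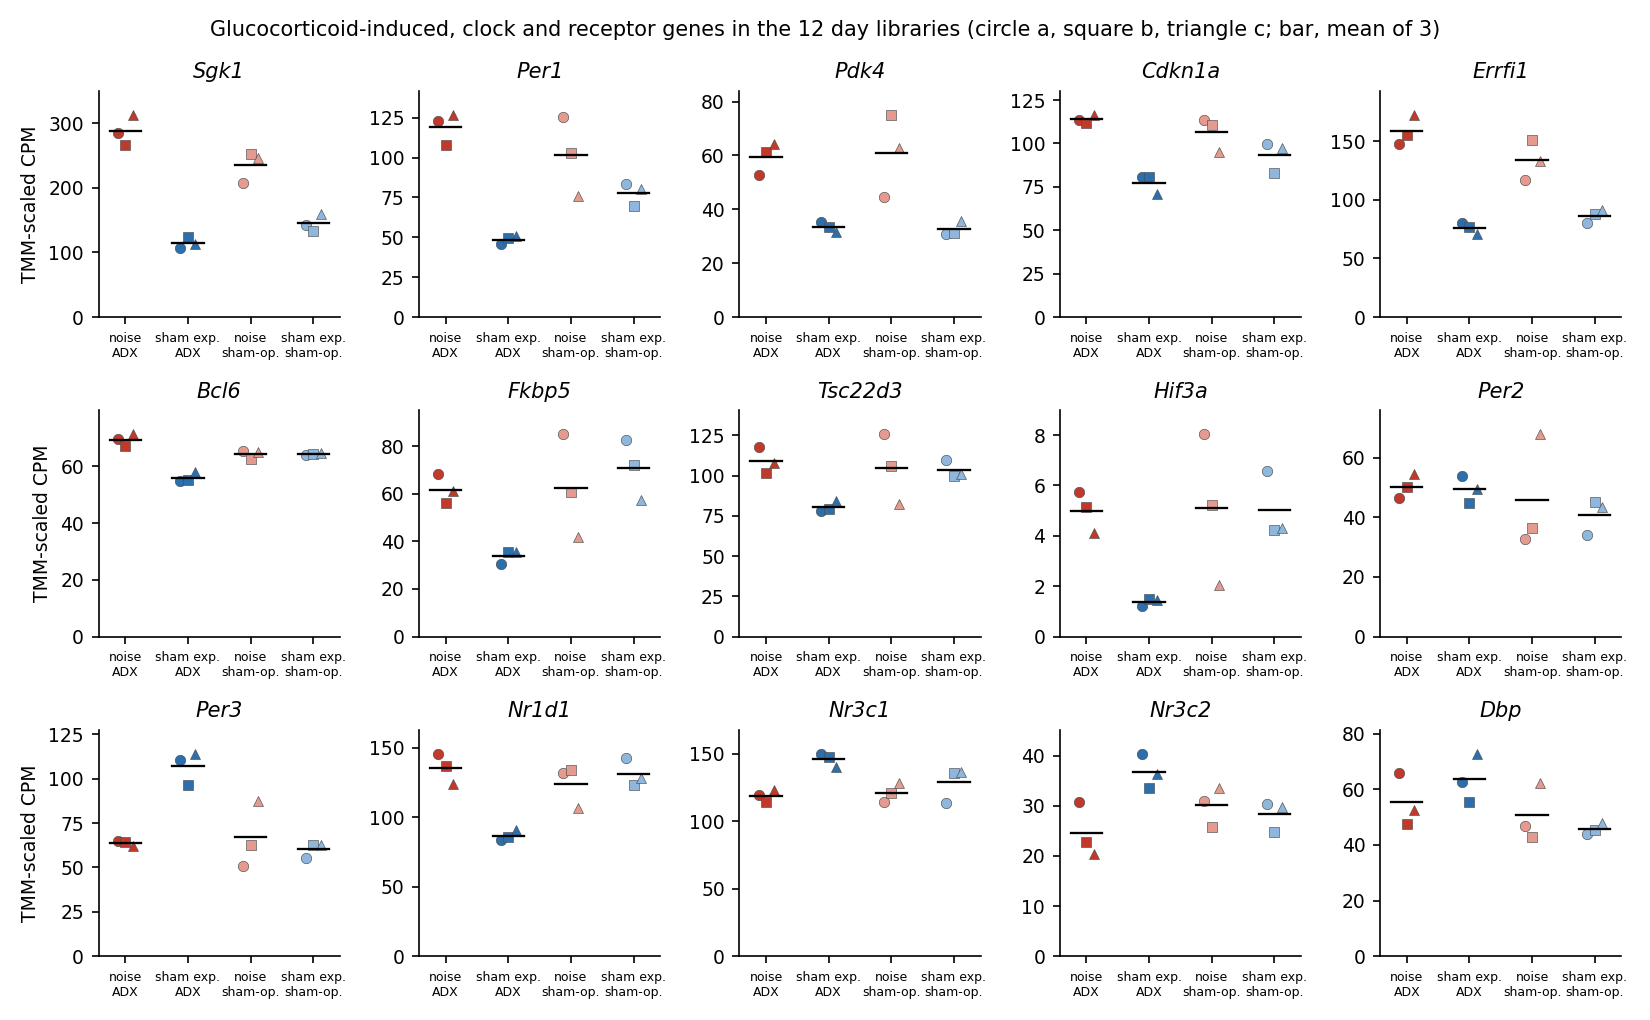
TMM-scaled CPM of 15 glucocorticoid-induced, clock and receptor genes in the 12 day libraries, in the order noise ADX, sham exposure ADX, noise sham-operated, sham exposure sham-operated; points are libraries, bars the mean of 3, and each axis starts at 0. For Fkbp5 and Per1 the 3 sham exposure ADX libraries are the lowest of the 12, at 30.5 to 35.5 CPM and 45.6 to 50.6 CPM.

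Clock genes moved in both directions. Of 21 core clock genes 3 rose, 2 fell and 16 did not pass, with a median log2 change of -0.08. Per1, a repressor of the clock that light, stress and glucocorticoid can induce (chr11:69095217-69109960), measured 122.8, 107.9 and 127 CPM in noise ADX libraries, against 45.6, 49.2 and 50.6 CPM in sham exposure ADX libraries (log2 change 1.30, SE 0.237, adjusted p = 0.00478). Per3, its paralogue (chr4:151003652-151044665), measured 65, 64.3 and 62.3 CPM with noise and 110.7, 96.8 and 114 CPM without (log2 change -0.75, SE 0.135, adjusted p = 0.00364). Per2, the third family member (chr1:91415982-91459324), measured 46.4, 50 and 54.5 CPM with noise and 53.7, 44.9 and 49.5 CPM without (log2 change 0.03, SE 0.237, adjusted p = 0.958). So the groups of Per1 and Per3 lay apart in opposite directions while those of Per2 overlapped.

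The repressor Nr1d1 (chr11:98767932-98775333) measured 145.8, 137.1 and 124 CPM with noise and 83.5, 85.9 and 90.9 CPM without (log2 change 0.64, SE 0.143, adjusted p = 0.0168). Bhlhe40, another repressor, changed by 0.49. Among 9 clock output factors Nfil3 rose by 0.53, and the PAR bZIP genes Tef and Hlf fell, at -0.41 and -0.47. Dbp, the third PAR bZIP gene, measured 65.7, 47.7 and 52.6 CPM with noise and 62.7, 55.3 and 72.8 CPM without, and did not pass (adjusted p = 0.45). Arntl (0.38, adjusted p = 0.0627), Clock and both Cry genes did not pass. Per1, Per3 and Bhlhe40 passed in all 6 fits with 1 library left out, Nr1d1 in 3, Tef in 2, and Nfil3 and Hlf in 1.

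Per1, Per3 and Nr1d1 in sham exposure ADX libraries stood apart from the sham-operated mice of the same time. Per1 ran from 75.6 to 125.3 CPM in day noise sham-operated and from 69.6 to 83.1 CPM in day sham exposure sham-operated. Per3 ran from 50.6 to 87.5 CPM and from 55.2 to 62.8 CPM in these groups, and Nr1d1 from 106.4 to 134.1 CPM and from 123.1 to 142.9 CPM. Among sham-exposed day libraries Per3 was higher in ADX than in sham-operated mice (log2 difference 0.83, adjusted p = 0.0215 by edgeR). That comparison shares the sham exposure ADX libraries with the noise comparison, so the values are set side by side and not combined.

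Both corticosteroid receptors fell. Nr3c1, the glucocorticoid receptor (chr18:39410545-39519421), measured 119.2, 113.8 and 123 CPM in noise ADX libraries, against 149.8, 147.5 and 140.1 CPM in sham exposure ADX libraries (log2 change -0.30, SE 0.071, adjusted p = 0.0225). Nr3c2, the mineralocorticoid receptor (chr8:76899442-77245012), measured 30.8, 22.8 and 20.4 CPM with noise and 40.4, 33.6 and 36.5 CPM without (log2 change -0.58, SE 0.14, adjusted p = 0.0238). Neither pair of groups overlapped. Each receptor passed in 2 of the 6 fits with 1 library left out, and the adjusted p reached 0.106 for Nr3c1 without noise ADX b and 0.146 for Nr3c2 without noise ADX c. The coactivator gene Ncoa2 fell by 0.18 on the log2 scale, Nr1d1 was the 1 member that rose, and 12 of the 16 receptor, metabolism and chaperone genes did not pass, among them Hsd11b1, which regenerates active hormone, and Hsp90aa1.

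Falls, called in 2.01% of all genes, were spread over many gene families. Those that passed in all 6 fits with 1 library left out numbered 31, against 82 rises. Sox8, a transcription factor of glial and other lineages (chr17:25565892-25570686), had the smallest adjusted p among them. It measured 21.6, 20.4 and 18.5 CPM in noise ADX libraries, against 37.7, 33 and 39.5 CPM in sham exposure ADX libraries (log2 change -0.87, SE 0.104, adjusted p = 5.01e-05). Adamts5, an aggrecan-cutting protease (chr16:85856173-85901828), measured 30, 29.8 and 26.8 CPM with noise and 45.2, 44.2 and 41.9 CPM without (log2 change -0.60, SE 0.0892, adjusted p = 0.000534). Wnt5a, a secreted ligand of cell polarity (chr14:28504750-28527448), measured 111.4, 76.5 and 75.3 CPM with noise and 150.3, 155 and 148 CPM without (log2 change -0.79, SE 0.14, adjusted p = 0.00349).

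In each of these genes the noise libraries lay below the sham exposure libraries, and for Wnt5a library a lay nearest to them. Ppp1r3c, a glycogen-targeting subunit, changed by -0.92, Apcdd1, a Wnt inhibitor, by -0.94, Prex2, an activator of Rac, by -0.78, Klhdc7a by -0.80 and Lnpep, an aminopeptidase of insulin-responsive vesicles, by -0.62. The endothelial phosphatase gene Ptprb changed by -0.49, and the chromatin genes Tet1, Smarca2 and Chd9 by -0.69, -0.35 and -0.31. Sox8, Ppp1r3c, Apcdd1, Prex2, Klhdc7a, Lnpep, Ptprb, Tet1, Smarca2 and Chd9 were chosen after their values were seen.

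Zinc-finger proteins, the largest family examined, had 17 falls and 1 rise among 322, with a median log2 change of -0.09. Over all genes 2.01% fell and 2.01% rose. Zfp783 changed by -0.60, Zfp532 by -0.54, Zfp369 by -0.52 and Zfp937 by -0.49, and these 4 passed in all 6 fits with 1 library left out. The count of falls ranged from 4, without noise ADX c or without sham exposure ADX a, to 31 without noise ADX a. Solute carriers had 13 rises and 3 falls among 286, with a median of 0.01, and their rises ranged from 0 without noise ADX c to 24 without noise ADX a.

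Some hair cell markers fell. Of 26 tested, 0 rose, 6 fell and 20 did not pass, with a median log2 change of -0.33, beside 2.01% of all genes lower. In bulk tissue, fewer cells of a type and less RNA per cell cannot be told apart. Chrna10, a subunit of the efferent acetylcholine receptor (chr7:102111266-102116828), measured 5.9, 7.62 and 6.67 CPM in noise ADX libraries, against 11.2, 10.4 and 12.5 CPM in sham exposure ADX libraries (log2 change -0.75, SE 0.17, adjusted p = 0.0172). Loxhd1, a stereocilium protein (chr18:77281958-77442930), measured 10.7, 13.4 and 9.97 CPM with noise and 18.5, 20.4 and 20.7 CPM without (log2 change -0.80, SE 0.186, adjusted p = 0.0202). Myo15, a stereocilium motor (chr11:60469339-60528369), measured 29.4, 29.7 and 26.1 CPM with noise and 38.5, 41.8 and 43.2 CPM without (log2 change -0.54, SE 0.124, adjusted p = 0.0198).

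In these 3 genes the groups did not overlap. Rbm24, Ush1c and Myo6 changed by -0.54, -0.44 and -0.34. Several defining markers did not pass and had overlapping groups. Slc26a5, the prestin of outer hair cells, measured 4.3, 2.99 and 3.56 CPM with noise and 3.17, 4.09 and 4.79 CPM without, and Myo7a 41.8, 46.9 and 47.5 CPM with noise and 37.1, 45.8 and 46.1 CPM without. Otof, of inner hair cell synapses, had a log2 change of -0.51 (adjusted p = 0.068). The summed level of the 26 markers was 1265, 1170 and 980.8 CPM in noise ADX libraries, against 1168, 1321 and 1400 CPM in sham exposure ADX libraries, so the groups overlapped and noise ADX c was the lowest of all 24 libraries. Without noise ADX c, 0 of the 26 fell, and without any of noise ADX b and the sham exposure libraries, 1 or 2 did. Noise ADX c was also the lowest of all 24 libraries in summed supporting cell (1837 CPM), glia (2881 CPM) and spiral ligament fibrocyte markers (7876 CPM). It was not the lowest in neuron or stria markers. It was the highest in macrophage (1066 CPM), lymphoid (1522 CPM) and erythroid markers (16130 CPM). The part of tissue make-up in the hair cell falls was not tested.

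Most matrix genes of the inner ear did not pass. Of 20 tectorial and inner-ear matrix genes 2 fell, Col9a1 (-1.10, adjusted p = 0.0198) and Otogl (-0.52, adjusted p = 0.0473), and the median was -0.32. Col9a1 (chr1:24177610-24252684) measured 25.6, 19.4 and 16.6 CPM with noise and 47.8, 42.6 and 41.9 CPM without. Tecta, the main tectorial membrane protein, had a log2 change of -1.17 with an adjusted p of 0.0853, and Otog one of -0.78 with an adjusted p of 0.0636. Of 44 collagens 2 fell (Col9a1 and Col27a1), with a median of -0.21, beside 2.01% of all genes lower. Without noise ADX b, without noise ADX c, and without sham exposure ADX a or c, 0 matrix genes and 0 collagens passed.

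Bdnf, the neurotrophin of the spiral ganglion's targets (chr2:109674700-109727007), measured 1.39, 1.93 and 1.52 CPM with noise and 2.95, 3.59 and 3.43 CPM without (log2 change -1.03, SE 0.262, adjusted p = 0.0317). Its groups lay apart, and it passed in 1 of the 6 fits with 1 library left out. Markers of spiral ganglion neurons (22), glia (16), endothelium (12) and pericytes (12) had 0 genes past the edgeR threshold, 4, 7, 3 and 3 at an unadjusted p below 0.05, 0, 2, 0 and 2 by DESeq2 and 1, 4, 0 and 2 by voom. Without noise ADX a, 3 neuron and 5 glia markers were lower and 1 pericyte marker higher, and without sham exposure ADX a 1 pericyte marker was higher.

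Markers of blood and marrow cells differed by cell type and by library. Of 12 macrophage markers 5 rose (Aif1, C1qa, C1qb, C1qc and Cd14, by 0.47 to 0.65) and 0 fell, beside 2.01% of all genes higher. In 10 of the 12 all noise ADX libraries lay above all sham exposure ADX libraries, beside 12.2% of all genes. The complement genes C1qa, C1qb and C1qc also make up 3 of the 4 rises among 16 complement genes. The summed macrophage level was 811.8, 975.5 and 1066 CPM in noise ADX libraries, against 727.7, 736.2 and 708.6 CPM in sham exposure ADX libraries. All 9 erythroid genes tested were higher in each noise library, beside the same 12.2% of all genes, and 1, Car1, passed. The neutrophil list had a median of 0.41, overlapping sums and 0 of 15 genes past the edgeR threshold (9 at an unadjusted p below 0.05, 4 by DESeq2, 0 by voom, 9 without noise ADX a). Of 16 lymphoid markers 0 rose and 1, Ebf1, fell, with a median of -0.16, and this fall was lost without any 1 of noise ADX b, noise ADX c and the sham exposure libraries. Without noise ADX a 2 lymphoid markers rose, and without sham exposure ADX b 1 did. The rise of Car1 passed in 1 of the 6 fits with 1 library left out. Bone markers had 4 rises of 18 (Dmp1, Acp5, Spp1 and Calcr), 8 without noise ADX a, 1 without noise ADX b or sham exposure ADX a and 2 without each of the other 3. Dmp1 passed in all 6 of these fits, Spp1 in 3, and Acp5 and Calcr in 1. Whole cochlea includes its bony wall and marrow.

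The macrophage rises numbered 0 without noise ADX c or without sham exposure ADX b or c, and 8 without noise ADX a. Vcam1 and Sele, adhesion molecules on which leukocytes roll and stick, rose by 0.54 and 0.91, 2 of 10 such genes. Each passed in 1 of the 6 fits with 1 library left out, and 0 of the 10 rose in any of the 5 fits that kept noise ADX a. The part of these marker levels in the changes of single genes was not tested. Skeletal muscle genes had a median of -1.88 with 0 of 17 past the edgeR threshold (7 at an unadjusted p below 0.05, 0 by DESeq2 and by voom), and sums of 75, 86.8 and 72.4 CPM with noise and 115.7, 78.1 and 188.4 CPM without, which overlapped.

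The share of genes that changed differed with gene length. With 15506 tested genes split into 5 equal classes by genomic length, 3.03% of the shortest class rose and 1.23% fell, while in the longest class 0.709% rose and 4% fell. The mean level of the longest genes (log2 CPM, with each gene's mean over the libraries subtracted) was -0.01, -0.07 and -0.11 in noise ADX a, b and c, against 0.03 in each sham exposure ADX library, with the other 18 libraries between -0.08 and 0.06. Cytosolic ribosomal protein genes, which are short, had a median of 0.22 over 77 genes with 0 called by edgeR (55 at an unadjusted p below 0.05, 11 by DESeq2, 35 by voom), and 59 of them were higher without noise ADX a. Their mean level was -0.06, 0.40 and 0.19 in noise ADX a, b and c, and between -0.05 and 0.00 in sham exposure ADX libraries. The part of length in the calls was not tested.

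**Figure D5:**
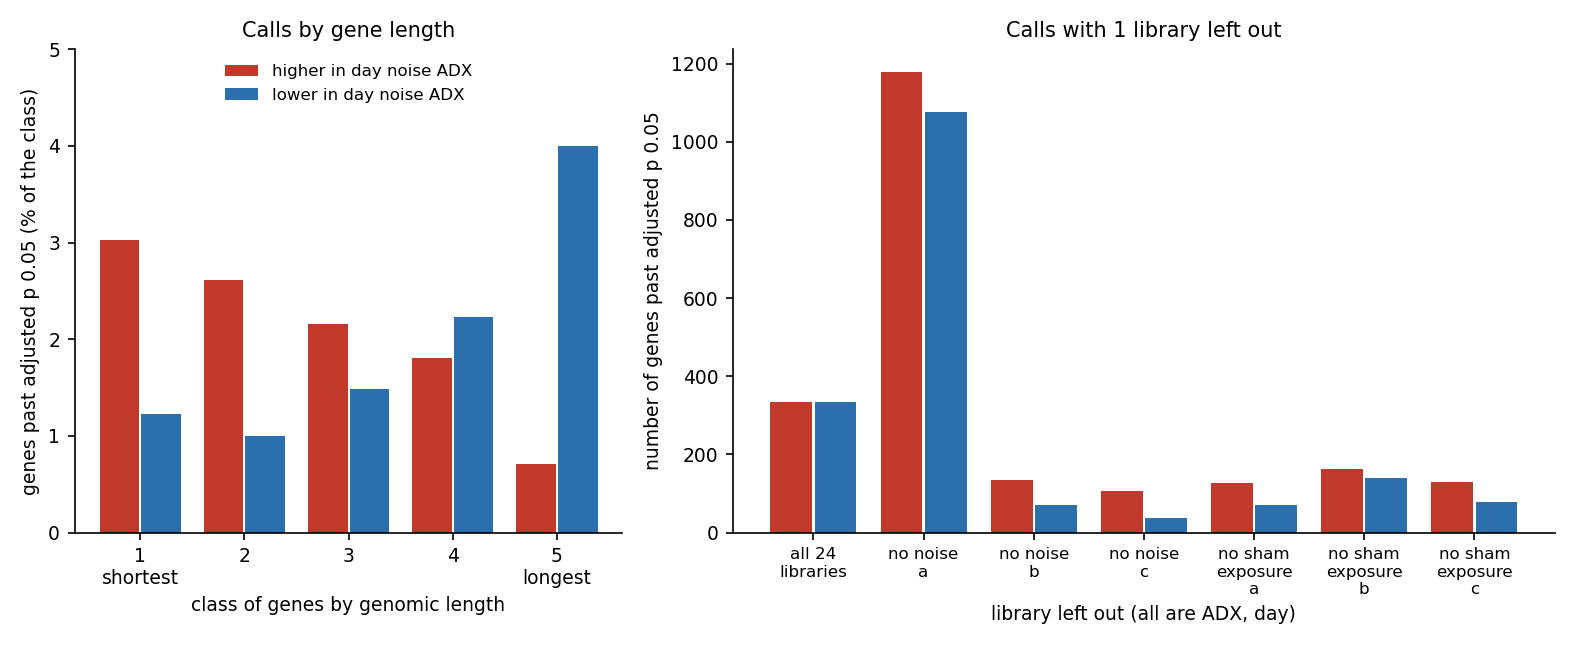
Left, share of genes past an adjusted p of 0.05 (% of the class) by class of genomic length, shortest to longest, for genes higher and lower in day noise ADX; the share lower is 4% in the longest class against 1.23% in the shortest. Right, number of genes called higher and lower with all 24 libraries and with each of the 6 libraries left out; without noise ADX a it is 1178 and 1076, and without any of the other 5 libraries it is below 334 and 333.

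Noise ADX a stood closer to the sham exposure libraries than b and c did. Over 15157 genes the SD of the log2 difference was 0.27 to 0.31 between noise ADX a and the sham exposure libraries, 0.32 to 0.35 for b and 0.36 to 0.40 for c. Between noise libraries it was 0.29 (a and b), 0.31 (a and c) and 0.22 (b and c), and between sham exposure libraries 0.22 to 0.27. By the test 2254 genes passed without noise ADX a, against 144 without noise ADX c and 196 to 302 without b or a sham exposure library.

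The study's question of whether adrenal hormones shape the noise response is met by the difference between the response in ADX and in sham-operated mice by day. By edgeR 0 of 16607 genes passed for this difference (0%), 2716 had an unadjusted p below 0.05 (16.4%), DESeq2 called 158 genes and limma voom 264. The smallest adjusted p was 0.155, reached by genes such as Per3 (difference of log2 changes -0.90), Adamts5 (-0.62), Tnfrsf12a (0.79), Ehd1 (0.54), Habp4 (-0.55) and Cd300e (1.51). Ehd1, Habp4 and Cd300e were chosen after their values were seen. For Per1 the difference was 0.91 (adjusted p = 0.202), for Fkbp5 1.04 (adjusted p = 0.253) and for Fos 0.93 (adjusted p = 0.452). A count of 0 here does not show that the responses were alike, and 811 genes passed without noise ADX a.

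Responses of the same genes in sham-operated mice by day and in both night comparisons can be set beside these, since they share no library with the 6. Of the 334 genes that rose, 211 (63.2%) had a positive log2 change in sham-operated mice by day, 289 (86.5%) in ADX mice at night and 294 (88.0%) in sham-operated mice at night, beside 47.5%, 49.8% and 51.7% of all genes. Called higher in both were 30, 62 and 80 genes, which are 8.98%, 18.6% and 24% of the 334 and 85.7%, 86.1% and 72.1% of the genes called there. The 333 that fell had a negative change in 250 (75.1%), 245 (73.6%) and 273 (82.0%), beside 52.5%, 50.2% and 48.3% of all genes, and 3, 4 and 1 were called lower in both. Over all genes those comparisons called 0.211%, 0.434% and 0.668% higher and 0.0361%, 0.0662% and 0.0482% lower.

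In all 4 comparisons 25 genes rose and 0 fell. Fosl1 had log2 changes of 4.27 in sham-operated mice by day, 5.53 in ADX mice at night and 5.53 in sham-operated mice at night, and Tnfrsf12a of 1.15, 1.65 and 1.51. Sox8 fell in sham-operated mice by day (-0.49) and in ADX mice at night (-0.52). Per1 had changes of 0.39, 0.57 and 0.27, Per3 of 0.15, -0.19 and 0.20 and Nr3c1 of -0.09, -0.07 and -0.05, none past the threshold, while Nr1d1 rose in sham-operated mice at night (0.74). Of the genes that passed, 245 of the 334 rises and 327 of the 333 falls were called in none of the other 3 comparisons, which by itself does not show a difference, as those comparisons called 41, 83 and 119 genes (0.247%, 0.5% and 0.717%).

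For the difference between day and night in ADX mice, 1 gene of 16607 (0.00602%) passed, and 1935 (11.7%) had an unadjusted p below 0.05. Khdrbs3, an RNA-binding regulator of splicing (chr15:68928420-69101211), measured 16.6, 15.2 and 16.9 CPM in day noise ADX libraries, against 21.1, 20.1 and 19.4 CPM in day sham exposure ADX libraries (log2 change -0.32, SE 0.061, adjusted p = 0.0056). At night it averaged 22.7 ± 0.828 CPM in noise ADX and 18.6 ± 0.323 CPM in sham exposure ADX libraries (SD, n = 3 each; log2 change 0.29, adjusted p = 0.031 by edgeR). The change was thus downward by day and upward at night, and the difference of the log2 changes, day minus night, was -0.60 (SE 0.086, adjusted p = 0.0103 by edgeR). That call was lost with the groups compared alone, without the 3 libraries with pituitary or cerebellar transcripts, and without any 1 of day noise ADX b, day sham exposure ADX a, and night sham exposure ADX b and c.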

How the data were processed

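RNA of whole mouse cochlea was counted per gene in 24 libraries of 8 groups of 3. The deposited table holds raw counts per gene symbol from a stranded poly-A kit with 50-base single reads, per the labels. TopHat2 2.0.11, HTSeq 0.6p1 and the build mm10 are named in the submitters' processing notes; the strand setting and the annotation are not given in the sources used here, so genes with an overlapping or antisense partner are uncertain. Of 23420 entries 3340 had no count, and 27 had names turned into dates (0.214% of counts) and were kept unidentified.

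The analysis used edgeR 4.0.16 under R 4.3.3: filterByExpr on the 8 groups (16607 genes), TMM factors (0.974 to 1.02), and a robust quasi-likelihood model with 1 coefficient per group over all 24 libraries (common biological coefficient of variation 0.0991). Then 3 main contrasts were tested two-sided with Benjamini-Hochberg adjustment over all genes and a threshold of 0.05: day noise ADX minus day sham exposure ADX, that response minus the one in sham-operated mice, and that response minus the one at night. The noise responses of the other groups, and ADX against sham-operated mice without noise, were tested in the same model for values set beside these. SE is the absolute log2 change divided by the square root of F. Log2 levels used a prior count of 2. The procedure was tested on simulated data.

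Named genes were up to 12 a direction by size of change (called genes, separate groups, average log2 CPM not below 0), without blood, muscle, pituitary, cerebellum and epithelium markers; up to 10 members a list past the threshold; the 2 largest changes of each list; up to 8 genes a direction for each difference of responses; and 17 fixed genes. Further members of the lists were named after their values were seen. The 65 lists held 2110 entries, 1995 of them tested. The comparison, members and lists were chosen with earlier results of these data known. Positions come from GENCODE vM21 (GRCm38) by symbol (21712 entries matched) and promoters from RefSeq. Alternatives were RLE factors, DESeq2 1.42.0, voom of limma 3.58.1, no filter, the groups compared alone, a replicate block, a fit leaving out 3 libraries in which pituitary or cerebellar transcripts were found, and each library left out. Whether shared letters pair the libraries is not stated in the labels and was not settled here. The 6 pairs of libraries within the 2 day ADX groups differed beyond sampling noise. Results for some genes are not reported here.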

Additional observations from a re-analysis of the deposited data

Results flagged for a closer look

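The noise response of Khdrbs3 in ADX mice differed between day and night by -0.60 on the log2 scale (SE 0.086, adjusted p = 0.0103 by edgeR's quasi-likelihood test of the difference itself). By day all 3 noise ADX libraries lay below all 3 sham exposure ADX libraries, and its fall passed in all 6 fits with 1 of these libraries left out but not with the 2 groups fitted alone (adjusted p = 0.0905 by edgeR). The difference between day and night had 0 genes past the threshold with the groups compared alone, without the 3 libraries with pituitary or cerebellar transcripts, and without any 1 of day noise ADX b, day sham exposure ADX a, and night sham exposure ADX b and c. In sham-operated mice its log2 change was 0.06 by day and -0.03 at night, neither past the threshold.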

How the results depend on the processing

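The 667 genes changed by day noise in ADX mice became 1285 with DESeq2 (658 of the 667 among them), 1405 with voom (655) and 410 with the 2 groups fitted alone (292); the cause was not tested. With RLE factors (658), no filter (536) and without the 3 libraries with pituitary or cerebellar transcripts (711) the count stayed within 1.5 times. With each of the 6 libraries left out it ran from 144 to 2254. For the difference from sham-operated mice the 0 genes became 158 with DESeq2, 264 with voom and 12 with the groups compared alone, and 0 to 811 with 1 library left out, 811 without day noise ADX a and 1 without day noise sham-operated a. For day minus night in ADX mice the 1 gene became 24 with DESeq2, 0 with the groups compared alone and 0 without the 3 libraries, and 0 to 36 with 1 library left out, 36 without day noise ADX a. The cause was not tested.

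The replicate block gave 549, 0 and 1 genes for the 3 comparisons. Same-lettered libraries of the 2 day ADX groups correlated at -0.12, 0.01 and -0.19 in their deviations from the group means. Libraries of unlike letters correlated at -0.06 to 0.18. These values cannot exclude that the letters pair libraries, since deviations within a group of 3 sum to 0 and so depend on each other. Of 3561 values of named genes under alternatives, 2907 kept direction and side of the threshold, 576 lost the threshold, 78 gained it and 0 reversed. Of 1690 counts per list, 402 moved by more than 1.5 times or between 0 and another value. With 3 libraries a group, small changes and genes of few reads are the least certain.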

Other observations

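Several genes with large changes and low levels stood outside the lists, and they were picked with their values in view. The acetylcholine receptor subunit Chrna3 measured 0, 2.25 and 4.59 CPM in noise ADX libraries, against 0.128, 0 and 0.0386 CPM in sham exposure ADX libraries (adjusted p = 0.0495). Htr3a, a serotonin receptor subunit, measured 0.359, 4.89 and 7.58 CPM with noise and 0.47, 0.543 and 0.309 CPM without (adjusted p = 0.0313), and Cckar, a cholecystokinin receptor, 0.199, 2.02 and 3.11 CPM with noise and 0.513, 0.334 and 0.0386 CPM without (adjusted p = 0.0444). In each of these 3 genes library a lay with the sham exposure libraries while b and c were high, and each passed in 1 of 6 fits with 1 library left out.

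The epithelial genes that follow were also picked with their values in view, and for separate groups. That all 3 of their noise libraries were high therefore follows from the choice. Pou2f3 measured 4.82, 4.89 and 4.74 CPM in noise ADX libraries, against 1.33, 1.79 and 2.35 CPM in sham exposure ADX libraries (adjusted p = 0.0186), Spdef 1.08, 0.654 and 1.02 CPM against 0.128, 0.25 and 0.27 CPM (adjusted p = 0.014), and Krt75 1.51, 1.51 and 2.01 CPM against 0.556, 0.501 and 0.386 CPM (adjusted p = 0.0102), each with noise first. With 1 library left out Pou2f3 passed in 2 and Krt75 in 4 of the 6 fits, and Spdef did not pass in all 6. Cldn4 and Krt18 rose by 1.04 and 0.84 and passed in all 6 fits with 1 library left out. So did Piezo1, a mechanically gated channel, at 154.3, 150.2 and 161 CPM with noise and 123, 123 and 122 CPM without. Tmprss3, a deafness gene of the organ of Corti, measured 97.8, 96.3 and 96.3 CPM with noise and 74.1, 70 and 70.1 CPM without, and Vdr, the vitamin D receptor, rose by 0.71. The summed level of 11 ciliated and secretory epithelium markers was 2250, 3096 and 3466 CPM with noise and 2213, 1642 and 941.4 CPM without, while the median log2 change of its members was -0.09 and 4 of the 11 were positive, with 0 of the 11 past the edgeR threshold (1 at an unadjusted p below 0.05, 0 by DESeq2 and by voom), and its part in these changes was not tested.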
